A study of Saccharomyces cerevisiae with 4 samples.

Results

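The heat shock chaperones and general stress genes of *Saccharomyces cerevisiae* described here are 10 genes chosen by their systematic names: *HSP12* (YFL014W), *HSP26* (YBR072W), *HSP30* (YCR021C), *HSP42* (YDR171W), *HSP78* (YDR258C), *HSP82* (YPL240C), *HSP104* (YLL026W), *SSA4* (YER103W), *CTT1* (YGR088W) and *DDR2* (YOL052C-A). All 10 were found among the 6692 genes of the deposited count table, and all 10 passed the filter on low counts. The *sis2Δ* strain, in which *SIS2* is replaced by the *kanMX* cassette in the BY4741 background, was compared with wild-type BY4741, a haploid *MATa* strain with the alleles *his3Δ1 leu2Δ0 met15Δ0 ura3Δ0* that both strains carry. *SIS2* encodes a subunit of an enzyme of coenzyme A synthesis and an inhibitor of the Ppz phosphatases, and its deletion was studied for its effect on replicative lifespan. Polyadenylated RNA was sequenced from 2 *sis2Δ* and 2 wild-type cultures, named replicates A and B within each strain, which the methods describe as independent. They were grown in 15 ml of synthetic complete medium with 2% glucose to mid-log phase, and no heat or other stress is described for them. The methods take the deletion strains from a knockout collection, name BY4741 as the background and describe a PCR check of each deletion.

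Most of the yeast response to heat and other stress runs through the transcription factor Hsf1 and the related pair Msn2 and Msn4. Hsf1 binds heat shock elements, in which the triplet GAA recurs in alternating orientation, and keeps the genes of chaperones expressed in unstressed cells as well as inducing them. Msn2 and Msn4 bind the stress response element, AGGGG or its complement CCCCT, and are kept out of the nucleus by protein kinase A while glucose is plentiful. Among the 10 genes, *HSP104*, *HSP78*, *HSP82* and *SSA4* encode machines that fold proteins or pull them out of aggregates, *HSP26* and *HSP42* encode small heat shock proteins that hold unfolded proteins, *HSP12* and *HSP30* encode proteins of the membrane, *CTT1* encodes a catalase and *DDR2* a small stress protein of unknown function.

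Of the 10 genes, 2 were higher in *sis2Δ* at an adjusted p under 0.05 by edgeR's quasi-likelihood test, and 0 were lower. These were *CTT1*, with a 1.98-fold difference, and *SSA4*, with a 1.38-fold difference. Over all 5959 tested genes, 6.07% were called in either direction, 2.72% as higher and 3.36% as lower in *sis2Δ*. An unadjusted p under 0.05 was reached by 3 of the 10 genes, all higher (*HSP12* is the third), and by 0 lower. Of all 5959 tested genes, 1253 reached it by edgeR, 634 as higher and 619 as lower. The calls by limma-voom were the same 2 genes, and DESeq2 called *HSP12* as well. Of all tested genes, limma-voom called 353 and DESeq2 409. The median log2 fold change of the 10 genes was 0.08, against -0.0050 for all tested genes, with 6 values above and 4 below 0. Replicate B over replicate A of the same strain, by comparison, gave ratios between 0.841 and 1.30 for these genes in *sis2Δ* and between 0.987 and 1.24 in the wild type, and 8 of the 10 genes were higher in replicate B within each strain, where 52.2% of all tested genes were in *sis2Δ* and 50.6% in the wild type.

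Between 19001619 and 28069619 counts per library fell on genes. The deleted gene *SIS2* had 6 and 9 counts in *sis2Δ*, against 3991 and 2208 in the wild type. The a-specific genes *STE2*, *STE6*, *BAR1*, *MFA1*, *MFA2* and *AGA2* ranged from 54.9 to 650.4 CPM over the 4 libraries, and the genes of the other mating type, *STE3*, *MF(ALPHA)1*, *MF(ALPHA)2* and *SAG1*, from 0.0367 to 65.7 CPM. *MF(ALPHA)2* did not pass the filter on low counts. Of the 9 mating-type genes tested, 5 rose in *sis2Δ* (*MFA1*, *MFA2*, *AGA2*, *MF(ALPHA)1* and *SAG1*) and 0 fell. Over all tested genes 2.72% were called as higher and 3.36% as lower. Counts of *MF(ALPHA)1* were low, with 51 and 38 in *sis2Δ* and 10 and 13 in the wild type. The 9 tested genes summed to 2348 and 2386 CPM in *sis2Δ*, against 1700 and 1776 CPM in the wild type. Their part in the results below was not tested. *URA3* and *MET17*, deleted in the background, had 0 counts in each library. *LEU2*, also deleted there, had 1 count in *sis2Δ* replicate B and 0 in each other library. CPM expresses a count relative to the total of its library, here scaled by TMM, a method that balances libraries over the bulk of genes. Replicates of a strain differed beyond counting noise (chi-square over degrees of freedom 58.0 in *sis2Δ* and 19.8 in the wild type), and each library was used as a replicate. For 1 gene measured in 2 libraries a strain, the smallest p of a two-sided exact permutation test is 0.333, so each call rests on the spread that edgeR estimates across genes. Counts are deep for all 10 genes: the smallest was 1403, for *HSP26* in *sis2Δ* replicate A, and the largest 61950, for *HSP104* in wild-type replicate A. Summed, the 10 genes made up 0.574% and 0.573% of the counts in *sis2Δ*, against 0.522% and 0.559% in the wild type. After TMM scaling their summed level overlapped between the strains, at 5352 and 5930 CPM in *sis2Δ* and 5386 and 5620 CPM in the wild type. The largest part of these sums was *HSP104*, with 1983 and 2302 CPM in *sis2Δ* and 2276 and 2343 CPM in the wild type.

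**Figure D1:**
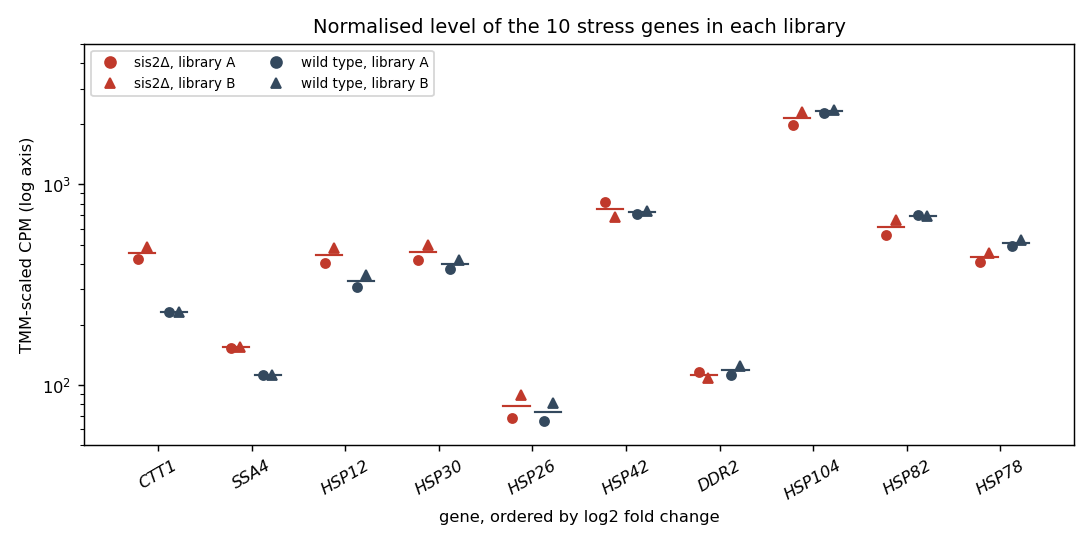
Normalised level of each of the 10 genes in each library, as CPM scaled by TMM on a log axis, with *sis2Δ* in red to the left of the wild type in dark blue, circles for replicate A, triangles for replicate B and a line for the mean of each strain. The libraries of the strains are clearly apart for *CTT1* and *SSA4*, whereas for *HSP26* the spread between replicates exceeds the difference between strains.

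Stretches of the upstream regions are shown for the 2 genes that changed (*CTT1*, *SSA4*), for *HSP12*, which came next, and for 3 chaperone genes that did not pass the test (*HSP78*, *HSP104*, *HSP42*). They were read from the R64 genome of RefSeq, the build the reads were mapped to, and run 5′ to 3′ on the strand of the gene. Capitals mark matches to the stress response element (AGGGG or CCCCT, so both strands) and to a core of 2 heat shock units, GAANNTTC or TTCNNGAA, each of which reads the same on both strands. The stretches are chrVII:654234-654514 on the plus strand for *CTT1*, chrV:364289-364438 on the plus strand for *SSA4*, chrVI:106816-107085 on the plus strand for *HSP12*, chrIV:974354-974503 on the minus strand for *HSP78*, chrXII:88313-88462 on the plus strand for *HSP104* and chrIV:806361-806450 on the plus strand for *HSP42*. Overlapping matches run together as 1 block of capitals.
CTT1: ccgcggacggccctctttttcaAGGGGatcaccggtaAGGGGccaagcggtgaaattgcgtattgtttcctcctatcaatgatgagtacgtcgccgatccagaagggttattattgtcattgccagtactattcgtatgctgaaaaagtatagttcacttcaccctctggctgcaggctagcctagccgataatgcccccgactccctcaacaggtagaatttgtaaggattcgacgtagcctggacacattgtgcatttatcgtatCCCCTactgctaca
SSA4: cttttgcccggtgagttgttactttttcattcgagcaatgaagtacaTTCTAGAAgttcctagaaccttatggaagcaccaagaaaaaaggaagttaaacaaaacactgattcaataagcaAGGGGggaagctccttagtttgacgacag
HSP12: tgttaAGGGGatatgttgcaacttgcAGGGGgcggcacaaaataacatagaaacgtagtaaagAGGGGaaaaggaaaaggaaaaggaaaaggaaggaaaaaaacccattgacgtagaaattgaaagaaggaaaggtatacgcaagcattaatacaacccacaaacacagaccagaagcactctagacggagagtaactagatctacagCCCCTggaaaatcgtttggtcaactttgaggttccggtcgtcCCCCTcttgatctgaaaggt
HSP78: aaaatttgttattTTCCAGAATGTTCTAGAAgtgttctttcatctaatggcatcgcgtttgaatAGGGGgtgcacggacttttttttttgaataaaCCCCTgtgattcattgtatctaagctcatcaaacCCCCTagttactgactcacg
HSP104: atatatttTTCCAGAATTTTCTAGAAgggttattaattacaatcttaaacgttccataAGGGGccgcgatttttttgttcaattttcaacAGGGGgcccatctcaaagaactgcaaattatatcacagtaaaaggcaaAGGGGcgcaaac
HSP42: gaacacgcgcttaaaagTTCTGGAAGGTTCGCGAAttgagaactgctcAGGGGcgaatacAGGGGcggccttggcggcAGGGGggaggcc
The stretch of *CTT1* holds 3 stress response elements, and 2 heat shock cores of this gene lie outside it, at -91 and -520 bases from the start codon. The stretch of *HSP12* holds 5 stress response elements, and no heat shock core was found in the 800 bases upstream of this gene. The stretch of *SSA4* holds 1 of each kind. In *HSP78*, *HSP104* and *HSP42* a run of alternating heat shock units lies just upstream of 3 stress response elements.

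Over the 250 bases before and 50 after the start codon, 8 of the 10 genes held a stress response element and 4, *CTT1* among them, held a heat shock core, where 21.6% and 22.6% of 6001 promoters of the genome did. Within 500 bases upstream, a window chosen after seeing the data, 9 of the 10 genes held a stress response element and 8 a heat shock core, where 34.1% and 35.2% of 6000 promoters did. A longer run of 3 heat shock units, also chosen after seeing the data, stood within 500 bases of *HSP42*, *HSP78* and *HSP104*, and in 1.48% of the promoters of the genome. The log2 fold changes of these 3 genes were 0.06, -0.23 and -0.11. Those of the 8 genes with a heat shock core within 500 bases ranged from -0.23 for *HSP78* to 0.98 for *CTT1*. *HSP12* had the most stress response elements of the 10 genes within 800 bases, with 7, and *HSP30* had 0 matches to either motif. The list was drawn up around targets of these factors, so the high shares restate the choice, and a match is only a run of letters.

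**Figure D2:**
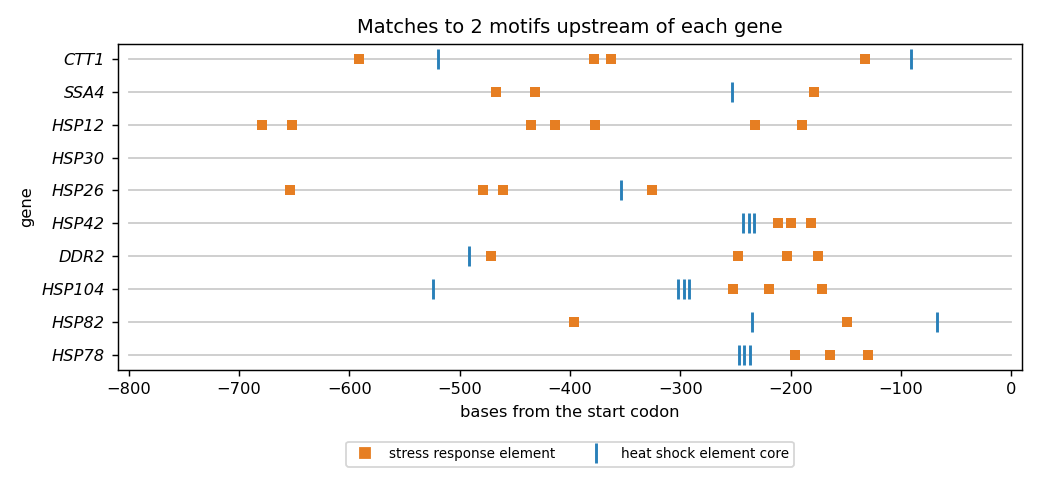
Matches in the 800 bases upstream of each of the 10 genes, by distance from the start codon in bases, with orange squares for the stress response element and blue bars for the heat shock core. Genes run from the highest log2 fold change at the top to the lowest at the bottom. *HSP12* shows 7 squares and no bar, and *HSP42*, *HSP104* and *HSP78* each show a tight group of 3 bars with 3 squares downstream of it.

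*CTT1* encodes the cytosolic catalase T, which breaks down hydrogen peroxide, and its transcript is a standard readout of Msn2 and Msn4. Its coding sequence lies on the plus strand of chromosome VII (R64) from 654634 to 656322. It had 426 and 487 CPM in *sis2Δ*, against 230 and 231 CPM in the wild type. Both *sis2Δ* libraries thus lay far above a wild-type pair that was almost equal. Means were 456 ± 43.5 CPM in *sis2Δ* and 231 ± 0.836 CPM in the wild type (SD, n = 2 each), which gave a log2 fold change of 0.98 with a 95% interval of 0.72 to 1.25 (edgeR, adjusted p = 0.000451). It was called under each of the 8 other ways of processing and with each library left out in turn, where the log2 fold change stayed between 0.88 and 1.09. *CTT1* ranked 26 by log2 fold change among the 162 genes called as higher. The peroxisomal catalase gene *CTA1* was measured at 14.9 and 15.6 CPM in *sis2Δ* and 13.0 and 14.1 CPM in the wild type, and did not pass the test (log2 fold change 0.17, adjusted p = 0.505 from the same test).

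*SSA4* encodes the most stress-dependent of the cytosolic Hsp70 chaperones, which bind exposed stretches of unfolded proteins. It lies on the plus strand of chromosome V from 364589 to 366517. It had 153 and 155 CPM in *sis2Δ*, against 112 and 112 CPM in the wild type. The replicates of each strain were nearly equal and the strains did not overlap. Means were 154 ± 1.70 CPM in *sis2Δ* and 112 ± 0.468 CPM in the wild type (SD, n = 2 each), which gave a log2 fold change of 0.46 with a 95% interval of 0.25 to 0.68 (edgeR, adjusted p = 0.0179). It was called under each of the 8 other ways of processing. Without wild-type replicate A the log2 fold change was 0.47 with an adjusted p of 0.075, and without wild-type replicate B it was 0.48 with an adjusted p of 0.0926 (edgeR's test in both cases). The sequences of its relatives do not blur the count: *SSA4* is 77.8% identical to *SSA3* and 76.5% to *SSA1* over the coding sequence, and 0 of its 1830 windows of 100 bases, the length of a read, occur elsewhere in the genome.

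The other cytosolic Hsp70 genes of the family did not pass the test. *SSA3*, also heat-inducible, had 42.6 and 41.0 CPM in *sis2Δ*, against 42.5 and 41.1 CPM in the wild type. Its log2 fold change was -0.0031, with a 95% interval of -0.25 to 0.24. The sign of this value was positive with library size alone and under 3 further alternatives. *SSA1* and *SSA2* encode the abundant Hsp70 proteins of growing cells. *SSA1* had 932 and 1156 CPM in *sis2Δ* and 1185 and 997 CPM in the wild type, and *SSA2* had 580 and 793 CPM in *sis2Δ* and 1097 and 901 CPM in the wild type. Neither passed edgeR's test (adjusted p = 0.875 and 0.112). *SSA2* was called as lower by DESeq2 (adjusted p = 0.0163) and by edgeR with library size alone (0.0416) or without *sis2Δ* replicate B (0.00314), and its adjusted p reached 0.538 without wild-type replicate A. *SSA1* and *SSA2* share 45.8% of the 100-base windows of *SSA1* with other places, which leaves their separate counts uncertain.

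*HSP12* encodes a small hydrophilic protein that associates with the plasma membrane and is among the genes most strongly induced through Msn2 and Msn4. It lies on the plus strand of chromosome VI from 107256 to 107585. It had 403 and 480 CPM in *sis2Δ*, against 307 and 354 CPM in the wild type. The libraries of the strains did not overlap, but the replicates of each strain lay apart. Means were 442 ± 54.6 CPM in *sis2Δ* and 330 ± 33.4 CPM in the wild type (SD, n = 2 each), and the log2 fold change was 0.42 with a 95% interval of 0.13 to 0.71 (edgeR, unadjusted p = 0.00841, adjusted p = 0.0931). It therefore did not pass the threshold. The adjusted p was 0.0269 by DESeq2 and 0.0371 by edgeR with library size alone, and it ranged up to 0.118 over the 8 other ways of processing. It was 0.0208 without *sis2Δ* replicate A and reached 0.494 in the other fits on 3 libraries.

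*HSP30*, the other gene of a membrane protein, encodes an inhibitor of the plasma membrane proton pump. Its induction by stress is known not to need Hsf1 or Msn2 and Msn4. Its coding sequence lies on the minus strand of chromosome III from 156109 to 157107. It had 418 and 498 CPM in *sis2Δ* and 378 and 420 CPM in the wild type. These values overlapped, and the log2 fold change was 0.20 with a 95% interval of -0.09 to 0.49 (edgeR, adjusted p = 0.417). Its relative *YRO2*, which encodes a similar membrane protein, was higher in *sis2Δ*, with 313 and 390 CPM against 211 and 230 CPM in the wild type. This made a log2 fold change of 0.67 with SE 0.129 (edgeR, adjusted p = 0.00981), and it was called with each library left out. *MRH1*, another relative, was measured at 1841 and 2090 CPM in *sis2Δ*, against 1579 and 1722 CPM in the wild type (log2 fold change 0.25, 95% interval -0.21 to 0.72, adjusted p = 0.529).

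The small heat shock proteins bind unfolding proteins without ATP. *HSP42* lies on the plus strand of chromosome IV from 806621 to 807748 and *HSP26* on the plus strand of chromosome II from 382030 to 382674. *HSP42*, whose protein works in unstressed cells and gathers misfolded proteins in the cytosol, had 819 and 689 CPM in *sis2Δ*, against 712 and 736 CPM in the wild type. The *sis2Δ* libraries lay on either side of both wild-type libraries. Its log2 fold change was 0.06 with a 95% interval of -0.27 to 0.39 (adjusted p = 0.855). *HSP26*, whose protein forms large shells that open on heating, was among the lowest of the 10 genes, with 68.2 and 89.0 CPM in *sis2Δ*, against 65.9 and 81.5 CPM in the wild type. Its replicates differed more than the strains did, with a log2 fold change of 0.10 and a 95% interval of -0.21 to 0.40 (adjusted p = 0.737). For both genes the sign turned when 1 library was left out, without *sis2Δ* replicate A for *HSP42* (-0.06), and for *HSP26* without *sis2Δ* replicate B (-0.11) or wild-type replicate A (-0.05).

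The protein disaggregases gave the opposite sign, and neither passed the test. *HSP104* encodes the cytosolic disaggregase, a ring-shaped ATPase that threads proteins out of aggregates and is needed to propagate yeast prions. Its coding sequence lies on the plus strand of chromosome XII from 88623 to 91349. It had 1983 and 2302 CPM in *sis2Δ*, against 2276 and 2343 CPM in the wild type. The strains overlapped, and the log2 fold change was -0.11 with a 95% interval of -0.62 to 0.40, the widest of the 10 genes (edgeR, adjusted p = 0.83). Without *sis2Δ* replicate A it was 0.0067, so its sign rests on that library. *HSP78*, on the minus strand of chromosome IV from 971808 to 974243, encodes the related disaggregase of the mitochondrial matrix. It had 408 and 457 CPM in *sis2Δ*, against 492 and 526 CPM in the wild type. Both *sis2Δ* libraries lay below both wild-type libraries, with a log2 fold change of -0.23, a 95% interval of -0.51 to 0.05 and an adjusted p of 0.321. The coding sequences of *HSP104* and *HSP78* are 65.7% identical and share no run longer than 17 bases, so reads of one do not count for the other.

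*HSP82* encodes the heat-inducible form of Hsp90, which completes the folding of kinases and receptors, and *HSC82* encodes its constitutive form. *HSP82* lies on the minus strand of chromosome XVI from 96496 to 98625. It had 557 and 665 CPM in *sis2Δ*, against 702 and 693 CPM in the wild type. Both *sis2Δ* libraries lay below the wild type, with a log2 fold change of -0.19, a 95% interval of -0.51 to 0.13 and an adjusted p of 0.483. *HSC82* was more abundant, with 1778 and 2241 CPM in *sis2Δ*, against 2814 and 2790 CPM in the wild type, a log2 fold change of -0.48 with a 95% interval of -1.02 to 0.06. It had an adjusted p of 0.296 from edgeR's test and was called as lower by DESeq2 (adjusted p = 0.0117) and by edgeR without *sis2Δ* replicate B (0.00506). The coding sequences of the pair are 92.4% identical over 2115 aligned bases, and 14 of the 2031 windows of 100 bases of *HSP82* occur elsewhere in the genome. *DDR2*, on the minus strand of chromosome XV from 231570 to 231755, is named for its response to DNA damage and is induced by many stresses. It had 116 and 108 CPM in *sis2Δ*, against 112 and 124 CPM in the wild type. It did not pass the test (log2 fold change -0.08, 95% interval -0.31 to 0.15, adjusted p = 0.723), and its relative *HOR7* had 884 and 1204 CPM in *sis2Δ* and 817 and 943 CPM in the wild type (log2 fold change 0.25, adjusted p = 0.477). Without wild-type replicate B the log2 fold change of *DDR2* was 0.02.

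**Figure D3:**
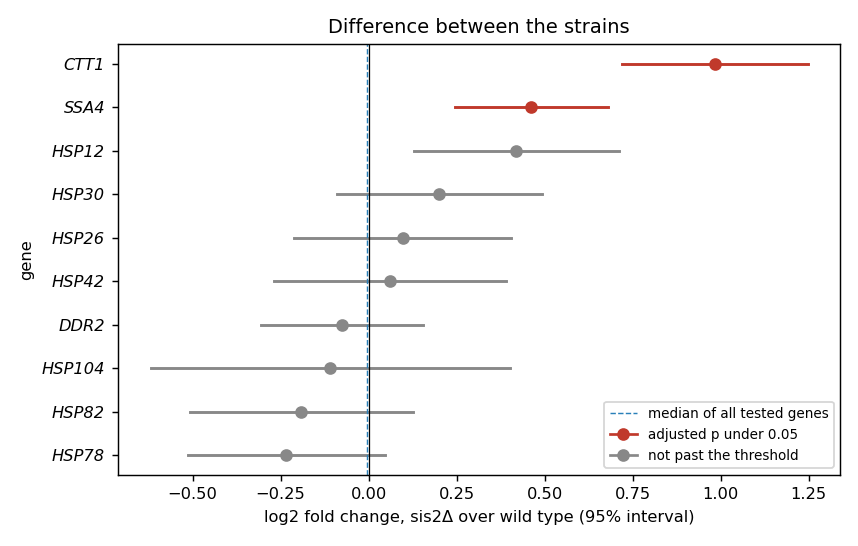
Log2 fold change of each of the 10 genes, *sis2Δ* over wild type, with its 95% interval from edgeR's quasi-likelihood test, in red where the adjusted p was under 0.05 and in grey elsewhere. The dashed line is the median of all tested genes, at -0.0050. The intervals of *CTT1*, *SSA4* and *HSP12* lie above 0 and the other 7 include it.

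Of the 10 genes, 3 had both *sis2Δ* libraries above both wild-type libraries (*CTT1*, *SSA4* and *HSP12*), 2 had both below (*HSP78* and *HSP82*) and 5 overlapped. Over all tested genes the libraries of the strains did not overlap for 53.1%, with *sis2Δ* above for 24.5% and below for 28.6%, so separated libraries alone say little about these genes.

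Levels were compared between genes per kilobase of coding sequence, as TMM-scaled CPM per kilobase. On this scale *HSP12* was the highest of the 10 genes, at 1338 ± 165 in *sis2Δ* and 1001 ± 101 in the wild type (SD, n = 2 each), and *SSA4* the lowest, at 79.9 ± 0.883 in *sis2Δ* and 58.0 ± 0.243 in the wild type. *HSP104* came next to *HSP12*, at 786 ± 82.6 in *sis2Δ* and 847 ± 17.4 in the wild type. *HSP42* and *DDR2* came after it in both strains, and their libraries overlapped, so their order is within the spread between replicates. They were followed by *HSP30* and *HSP82*. The order of the strains differed at 1 place: *CTT1*, at 270.2 ± 25.7 per kilobase in *sis2Δ*, stood above *HSP78* at 178 ± 14.1 and overlapped *HSP82* at 287 ± 35.6, whereas in the wild type *CTT1*, at 137 ± 0.495, stood below *HSP78* at 209 ± 9.79. Only the libraries of *HSP42* and *DDR2*, in both strains, and those of *HSP82* and *CTT1*, in *sis2Δ*, overlapped between neighbours in this order. A coding length leaves out the untranslated parts of a transcript, which weigh most in short genes such as *HSP12* and *DDR2*.

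To place the 10 genes, other genes of the same responses were read from the same fit. The lists were written from general knowledge of the pathways, but with earlier results of these data known. Their counts are therefore a description and not independent support. Of 33 other general stress genes known as targets of Msn2 and Msn4, 6 rose in *sis2Δ* (18.2%, where 2.72% of all tested genes did) and 0 fell, with a median log2 fold change of 0.08. An unadjusted p under 0.05 was reached by 10 of them as higher and 0 as lower. Over all 5959 tested genes, 634 and 619 did so. Of all tested genes, limma-voom called 156 as higher and 197 as lower, and DESeq2 199 and 210. By limma-voom and DESeq2 alike, 6 of the 33 were called as higher and 0 as lower. The largest rise was that of *ALD3*, a cytosolic aldehyde dehydrogenase that makes beta-alanine, a building block of pantothenate. It had 83.9 and 98.0 CPM in *sis2Δ*, against 41.7 and 42.8 CPM in the wild type, or 1.11 on the log2 scale with SE 0.115 (edgeR, adjusted p = 9.60e-05). *YGP1*, a secreted glycoprotein induced as nutrients run low, had 1153 and 1277 CPM in *sis2Δ*, against 642 and 729 CPM in the wild type, or 0.83 on the log2 scale (adjusted p = 0.0124). On that scale *SPI1*, a cell wall protein, was higher by 0.69 (adjusted p = 0.0035) and *PHM8*, a phosphatase also induced by low phosphate, by 0.66 (adjusted p = 0.00207). *DDR48*, a stress protein, was higher by 0.58 (adjusted p = 0.0285) and *RTN2*, a reticulon of the endoplasmic reticulum, by 0.56 (adjusted p = 0.0276). For all 6 genes the lower *sis2Δ* library exceeded the higher wild-type library, as it did for 24.5% of all tested genes. The 6 genes were called from these same libraries, so this adds no support to the calls. With wild-type replicate A left out, 3 of the 33 genes were called in place of 6, as the adjusted p of *YGP1* was then 0.275, that of *RTN2* 0.142 and that of *DDR48* 0.0842 (edgeR). Without wild-type replicate B it was 0.0966 for *YGP1* and 0.0641 for *RTN2*, and without *sis2Δ* replicate A it was 0.0895 for *DDR48* and 0.0657 for *RTN2*.

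Transcripts that rise as a culture uses up its glucose moved in both directions. Of 14 glucose-repressed genes, 2 rose (*ADH2* with a log2 fold change of 0.79 and *POX1* with 0.77) and 3 fell (*MLS1* with -1.43, *HXT5* with -0.80 and *IDP2*, which had 16.1 and 18.2 CPM in *sis2Δ*, against 34.7 and 33.9 CPM in the wild type), by edgeR's quasi-likelihood test with adjusted p of at most 0.0169. These are 14.3% higher and 21.4% lower, where 2.72% and 3.36% of all tested genes were. The median of the list was 0.03, and its summed level was 433 and 484 CPM in *sis2Δ*, against 464 and 439 CPM in the wild type. The part of growth stage in the rise of *CTT1*, *SSA4* and the other stress genes was not tested.

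Of 28 other chaperones and folding factors, most of them targets of Hsf1, 0 rose and 1 fell by edgeR's test (3.57%, where 3.36% of all tested genes fell), with a median log2 fold change of -0.08. An unadjusted p under 0.05 was reached by 2 as higher and 5 as lower, against 634 and 619 of 5959 tested genes. Of all 5959 tested genes, limma-voom called 156 as higher and 197 as lower, and DESeq2 199 and 210. Of the 28, 0 rose and 1 fell by limma-voom, and 0 rose and 3 fell by DESeq2. The gene that fell was *HSP10*, which encodes the lid of the Hsp60 chaperonin of mitochondria, with 157 and 193 CPM in *sis2Δ*, against 235 and 246 CPM in the wild type. On the log2 scale this was -0.46, with a 95% interval of -0.72 to -0.20 (edgeR, adjusted p = 0.0424). That call did not hold with library size alone (adjusted p = 0.0585), without the filter on low counts (0.0613), or without *sis2Δ* replicate A (0.166), wild-type replicate A (0.0617) or wild-type replicate B (0.226). Without *sis2Δ* replicate B, where that strain keeps 1 library, more of the 28 genes were called, mostly as lower, and more of all tested genes. Calls as lower then made up a larger share of the 28 genes than of all tested genes.

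Of 11 other genes of defence against peroxide and superoxide, 0 rose and 2 fell, by edgeR, limma-voom and DESeq2 alike (18.2%, where 3.36% of all tested genes fell by edgeR). An unadjusted p under 0.05 was reached by 0 as higher and 3 as lower, against 634 and 619 of 5959 tested genes. The median log2 fold change was -0.14. *GPX2*, a glutathione peroxidase, had 49.0 and 40.3 CPM in *sis2Δ*, against 81.6 and 83.0 CPM in the wild type, or -0.88 on the log2 scale with SE 0.119 (edgeR, adjusted p = 0.000796). It was called with each library left out. *TRX2*, a cytosolic thioredoxin, had 122 and 166 CPM in *sis2Δ*, against 195 and 215 CPM in the wild type, or -0.51 on the log2 scale (edgeR, adjusted p = 0.0490). The call of *TRX2* did not hold without *sis2Δ* replicate A (adjusted p = 0.214), without wild-type replicate B (0.18), without the filter (0.0743) or with at least 10 counts in every library (0.0509). Both genes thus differed in direction from *CTT1*.

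Of 26 regulators of the stress responses, among them the subunits of protein kinase A, 0 were called by edgeR, limma-voom or DESeq2. Over all 5959 tested genes edgeR called 6.07% in either direction, limma-voom 353 genes and DESeq2 409. At such shares, 0 of 26 says little about the regulators. An unadjusted p under 0.05 by edgeR was reached by 2 as higher and 1 as lower, against 634 and 619 of 5959 tested genes. *MSN2* had 121 and 108 CPM in *sis2Δ*, against 94.7 and 79.2 CPM in the wild type, a log2 fold change of 0.39 with a 95% interval of 0.14 to 0.65 (edgeR, adjusted p = 0.0723). *MSN4* had 294 and 284 CPM in *sis2Δ*, against 334 and 348 CPM in the wild type, a log2 fold change of -0.24 with an interval of -0.48 to 0.0039 (adjusted p = 0.244). *HSF1* had 164 and 126 CPM in *sis2Δ*, against 131 and 101 CPM in the wild type, a log2 fold change of 0.32 with an interval of -0.0050 to 0.64 (adjusted p = 0.244). With 1 library left out the log2 fold change of *HSF1* lay between 0.12 and 0.52, and edgeR called it without *sis2Δ* replicate B (adjusted p = 0.0319) and without wild-type replicate A (0.0381). The kinase gene *HOG1* was at -0.26 on the log2 scale (adjusted p = 0.198). *MSN2* was past the threshold with median-ratio size factors (adjusted p = 0.045), and with 1 library left out its adjusted p ranged from 0.0248 to 0.507. These are levels of the transcripts, and the activity and location of the proteins were not measured.

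**Figure D4:**
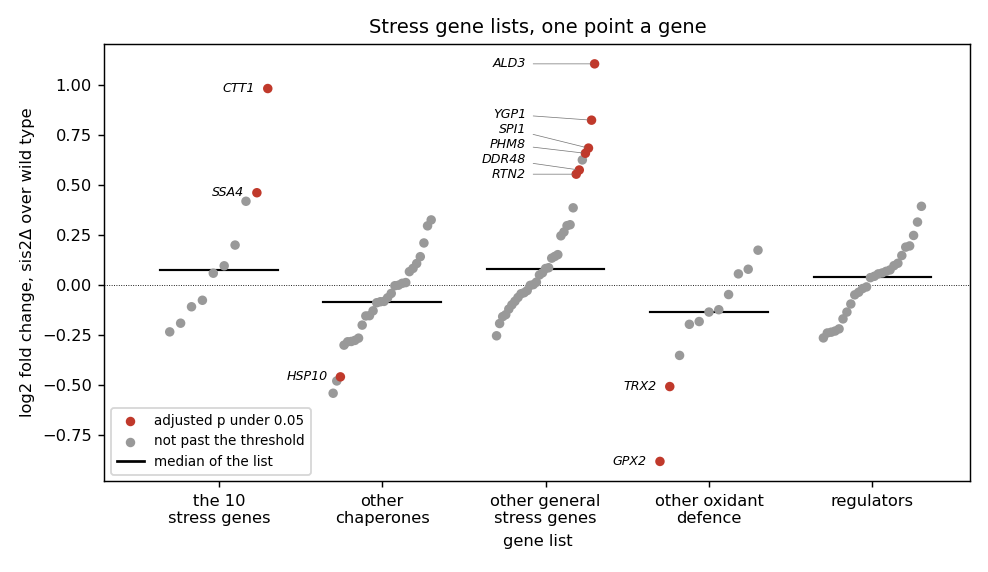
Log2 fold change, *sis2Δ* over wild type, of every gene of the 10 stress genes and of 4 further lists, 1 point a gene, in red and named where the adjusted p was under 0.05, with a line for the median of each list. The red points lie above 0 among the 10 stress genes and the 33 other general stress genes, and below 0 among the 28 other chaperones and the 11 other oxidant defence genes. The 26 regulators have none.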

How the data were processed

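The authors used Cutadapt 3.7 for trimming, STAR 2.7.8a for mapping to R64 and featureCounts 2.0.1, set to reverse strand, for counting, and deposited the raw counts of 6692 genes. The gene annotation and the treatment of multi-mapping reads are not given in the sources used here. The authors' table of fold changes and p-values from limma-voom was not used. Strain and replicate letter came from the sample labels, one of which ends in a Greek letter read as B.

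The 5959 genes that reached 0.5 CPM in 2 or more libraries were normalised by TMM and tested with the quasi-likelihood method of edgeR 4.0.16 in R 4.3.3, with Benjamini-Hochberg adjustment over all tested genes at 0.05. Log2 fold changes are *sis2Δ* over wild type, and the 95% intervals come from that test. The 8 alternatives were limma-voom (limma 3.58.1), DESeq2 1.42.0, the legacy quasi-likelihood fit, library size alone and median-ratio size factors in place of TMM, a minimum of 10 counts in every library and a minimum of 1 count in all in place of the filter, and the replicate letter as a block. Each library was also left out in turn. The scripts were tested on simulated counts. At this depth 3 counts correspond to between 0.107 and 0.158 CPM, counting error only.

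Genes named are the 10 genes, their closest relatives, *HSF1*, *MSN2*, *MSN4*, each list gene past the threshold and, where a list had none, the 2 with the smallest p. The 10 genes and the lists were chosen with earlier results of these data known. Symbols and coordinates are those of the RefSeq annotation of R64, in which 6008 of the 6692 identifiers were found.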

Additional observations from a re-analysis of the deposited data

How the results depend on the processing

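The call of *CTT1* was kept under every alternative tried and with each library left out, and that of *SSA4* under all but 2, the fits without wild-type replicate A or B. With 1 library left out, the number of the 10 genes called lay between 1 and 3, and their median log2 fold change between -0.0079 and 0.19. In these fits 1 strain keeps 1 library, which is assumed to vary like the others. They moved the number of all genes called between 198, without wild-type replicate B, and 1051, without *sis2Δ* replicate B, against 362 with all libraries. Library size alone in place of TMM called 316 genes, of which 59.5% were higher in *sis2Δ*, against 44.8% with TMM, and added *HSP12* to *CTT1* and *SSA4*.

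The strains share the replicate letters A and B, which the sources do not tie to a shared batch or day. Over all genes, same-lettered libraries deviated from their strain's mean with a correlation of 0.072. With the letter as a replicate block, 788 genes were called, and edgeR called *HSP12*, *HSF1* and *MSN2* as higher (adjusted p = 0.028, 0.0412 and 0.0056) and *SSA2* as lower (0.038).

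The signs that turned were those of 6 genes that no fit called, and the cause was not tested. With 1 library left out, the log2 fold change ranged from -0.11 to 0.29 for *HSP26*, from -0.0591 to 0.18 for *HSP42*, from -0.22 to 0.0067 for *HSP104*, from -0.15 to 0.0186 for *DDR2*, from -0.23 to 0.0949 for *SSA1* and from -0.0193 to 0.0245 for *SSA3*. *SSA3* was also at 0.0115 by DESeq2, 0.0114 with median-ratio size factors, 0.0521 with library size alone and 0.0147 without the filter.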
